A study of Mus musculus with 13 samples.

Results

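The core circadian clock of the liver was followed through 10 genes, Arntl, Clock, Npas2, Per1, Per2, Per3, Cry1, Cry2, Nr1d1 and Nr1d2. They were chosen by name from a table of 53392 genes, and all 10 were found. All 10 also had enough reads to be among the 14317 genes tested between groups. RNaseq was done on whole liver from 13 female mice aged 8 to 14 weeks. All mice received a liquid diet with 28% of calories from ethanol (Etoh) for 4 weeks, and all were homozygous for Albumin-Cre and for a Rosa26 rtTA allele with a floxed stop. Albumin-Cre limits rtTA, a transactivator that needs doxycycline (Dox), to hepatocytes.

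The ASAH− Etoh-Dox group was 4 mice with Dox at 200 mg/l of diet and no ASAH1 transgene. The ASAH+ Etoh-Dox group was 5 mice, which carried the tetracycline-responsive TRE-ASAH1 transgene and had it induced by the same Dox diet. The design text of the study gives 4 mice in each group, whereas 5 libraries belong to this group by their descriptions, and all 5 were used. The ASAH+ Etoh group was 4 mice of the same genotype on the ethanol diet without Dox, and littermates were used. The study set these groups side by side to learn whether genotype or diet gives the better control for induction. ASAH+ Etoh-Dox and ASAH+ Etoh mice differ in Dox as well as in induction, which cannot be told apart. ASAH− Etoh-Dox and ASAH+ Etoh mice differ in the transgene and in Dox, which cannot be told apart either. There was no group without ethanol, and the hour at which these livers were removed is not given in the sources used here. The gene counts of a mouse summed to 17819486 at the lowest and 35358711 at the highest, with a median of 24454043.

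The molecular clock is a feedback loop of transcription. BMAL1, the product of Arntl, pairs with CLOCK or NPAS2 and binds E-box sequences to switch on the Per and Cry genes and the genes of the nuclear receptors REV-ERBα (Nr1d1) and REV-ERBβ (Nr1d2). The PER and CRY proteins return to the nucleus to block BMAL1 and CLOCK, while the REV-ERBs repress Arntl. In liver these transcripts rise and fall over the day, and many genes of lipid and glucose metabolism follow them.

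Asah1 served to check how the libraries were grouped. It encodes acid ceramidase (ENSMUSG00000031591, chr8:41340197-41374773 of GRCm38, minus strand). Its level, in CPM (counts scaled to library size with TMM factors), was 48.7, 40.04, 53.7 and 55.0 in ASAH− Etoh-Dox mice, and 46.8, 44.2, 46.8 and 48.3 in ASAH+ Etoh mice. In ASAH+ Etoh-Dox mice it was 10310, 9668, 15130, 12720 and 15940 CPM, which set the induced mice apart. The other 2 groups overlapped in Asah1, which therefore does not check them against each other. The hepatocyte markers Alb, Apoa1, Ttr, Serpina1c, Cyp3a11 and Hnf4a summed to between 79930 and 129700 CPM in every library, most of it Alb. Markers of other cells were lower. The highest sums in any mouse were 989.5 CPM for 3 erythroid markers, 657 CPM for 5 Kupffer cell markers, 274 for 5 stellate cell markers, 192 for 5 sinusoidal endothelial markers and 79.1 for 5 cholangiocyte markers. The erythroid sum was 90.8 to 125 CPM in ASAH+ Etoh mice, 135 to 989.5 CPM in ASAH− Etoh-Dox mice and 157 to 531 CPM in ASAH+ Etoh-Dox mice. Values are given below in the order of the replicate numbers of each group. In bulk liver, fewer cells of a type and less RNA per cell cannot be told apart.

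Promoters of the members were searched on both strands for 3 motifs of the factors of the loop, since the members moved with or against one another over the mice. CACGTG is the E-box bound by BMAL1 and CLOCK, TTATGTAA the D-box bound by Dbp, Tef, Hlf and Nfil3, and AGGTCA the core hexamer of elements bound by REV-ERB proteins. RefSeq windows of 250 bases before to 50 bases after a start on GRCm38.p6 were found for 9 of the 10 genes, 13 windows in all, and Per2 had no entry. Of all 32851 windows in that table, 7.15% held CACGTG, 0.938% TTATGTAA and 16.3% AGGTCA. Of the 13 windows of clock genes, 2 held CACGTG, 1 held TTATGTAA and 4 held AGGTCA, and none of these matches overlapped. The sequences given are those of Per3, which held 2 D-boxes, Per1 and Cry1, which held the E-boxes, and Nr1d2, the REV-ERB gene with a hexamer. Each runs 5′ to 3′ on its gene's strand over the 250 bases before the start, with the matches in capitals.
Per3 (chr4:151044666-151044915, minus strand): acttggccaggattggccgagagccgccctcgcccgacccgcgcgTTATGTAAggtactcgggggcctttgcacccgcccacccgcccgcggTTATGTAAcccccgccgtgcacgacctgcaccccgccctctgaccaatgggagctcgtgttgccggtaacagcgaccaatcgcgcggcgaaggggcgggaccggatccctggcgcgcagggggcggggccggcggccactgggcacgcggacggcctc
Per1 (chr11:69098699-69098948, plus strand): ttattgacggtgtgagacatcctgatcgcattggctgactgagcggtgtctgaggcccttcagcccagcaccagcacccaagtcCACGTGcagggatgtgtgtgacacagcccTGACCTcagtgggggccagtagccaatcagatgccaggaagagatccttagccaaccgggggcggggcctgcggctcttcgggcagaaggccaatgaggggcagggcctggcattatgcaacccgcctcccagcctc
Cry1 (chr10:85185055-85185304, minus strand): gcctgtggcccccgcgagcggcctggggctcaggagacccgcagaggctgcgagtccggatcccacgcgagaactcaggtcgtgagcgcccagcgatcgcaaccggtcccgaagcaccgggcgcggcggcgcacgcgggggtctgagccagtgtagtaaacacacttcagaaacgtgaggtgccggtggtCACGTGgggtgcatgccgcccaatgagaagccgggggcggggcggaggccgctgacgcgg
Nr1d2 (chr14:18239107-18239356, minus strand): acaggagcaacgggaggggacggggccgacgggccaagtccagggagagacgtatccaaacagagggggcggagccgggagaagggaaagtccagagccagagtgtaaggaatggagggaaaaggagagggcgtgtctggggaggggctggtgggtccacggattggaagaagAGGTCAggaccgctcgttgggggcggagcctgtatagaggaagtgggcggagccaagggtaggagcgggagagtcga

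In Per3 the D-boxes began 205 and 158 bases before the start. In Per1 the E-box began 166 bases before the start, and the second match, TGACCT, is AGGTCA on the opposite strand, 137 bases before it. That start is from the first of 2 windows of Per1 and lies inside the annotated span of the gene. The other window of Per1 held no match. In Cry1 the E-box began 60 bases before the start, and in Nr1d2 the hexamer began 77 bases before it. In GENCODE M21 these stretches overlap exons by 10 bases in Cry1, 21 in Nr1d2, 1 in Per1 and 0 in Per3. In the first of 3 windows of Clock, AGGTCA lay on the opposite strand, 119 bases before the start. This start also lies inside the annotated span of its gene. For Arntl the hexamer lay in the first exon, from base 32 of the transcript that begins in the second of its windows, and a stretch of 30 bases is given for it.
Arntl (chr7:113207530-113207559, plus strand): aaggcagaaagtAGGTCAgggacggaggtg
The windows of Npas2, Cry2 and Nr1d1 held none of the 3 motifs. A match is a description of the letters and was not tested as a site.

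The values begin with the activators. Arntl encodes BMAL1, the partner without which the loop does not run (ENSMUSG00000055116, chr7:113207465-113314126, plus strand). It was at 15.6, 1.16, 9.43 and 1.11 CPM in ASAH− Etoh-Dox mice. It was at 0.940, 0.8285, 15.6, 17.3 and 8.81 CPM in ASAH+ Etoh-Dox mice. In ASAH+ Etoh mice it was at 3.502, 1.26, 2.41 and 8.79 CPM. High and low mice thus lay side by side in each group: the highest mouse was 14.1 times the lowest in the first group, 20.9 times in the second and 6.97 times in the third. All 3 groups overlapped. The log2 fold change of Arntl was 0.36 for ASAH+ over ASAH− Etoh-Dox mice, with a standard error of 1.00, and its 95% interval ran from -1.83 to 2.55 (adjusted p = 0.99966, from the quasi-likelihood test of edgeR with Benjamini-Hochberg adjustment). For ASAH+ Etoh-Dox over ASAH+ Etoh mice the estimate was 1.14 ± 1.05 (SE), at an adjusted p of 0.840 from edgeR, and 12 of 20 pairs of mice were higher with Dox. Neither passed the threshold of 0.1. With 1 mouse left out, the first estimate ran from -0.0556 to 1.18 and the second from 0.73 to 1.855. The second was 0.48 with limma-voom.

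Clock encodes the partner of BMAL1 (ENSMUSG00000029238, chr5:76209868-76304792, minus strand). Its values were 54.0, 26.0, 40.9 and 27.3 CPM in ASAH− Etoh-Dox mice, 25.4, 27.2, 64.5, 54.4 and 54.1 CPM in ASAH+ Etoh-Dox mice, and 40.3, 35.1, 39.2 and 47.1 CPM in ASAH+ Etoh mice. The same mice were high for Clock as for Arntl, over a narrower range of 2.54 times from the lowest of the 13 to the highest. Npas2, the gene of a CLOCK paralog that can replace it (ENSMUSG00000026077, chr1:39193731-39363236, plus strand), had few reads, from 2 to 121 per mouse. It stood at 5.52, 0.193, 1.22 and 0.107 CPM in ASAH− Etoh-Dox mice, at 0.0830, 0.0721, 4.30, 2.65 and 0.868 CPM in ASAH+ Etoh-Dox mice, and at 0.277, 0.122, 0.0928 and 0.636 CPM in ASAH+ Etoh mice. In 5 of the 13 mice there were 2 or 3 reads. The mice above 2 CPM were ASAH− replicate 1 and ASAH+ Etoh-Dox replicates 3 and 4. Npas2 had the largest estimates of all 10 genes, a log2 fold change of 2.55 (SE 1.43) for ASAH+ Etoh-Dox over ASAH+ Etoh mice and 2.67 (SE 1.47) for ASAH− Etoh-Dox mice over ASAH+ Etoh mice. Neither passed the threshold (adjusted p = 0.726 and 0.618 from edgeR), and exact permutation tests gave p = 0.310 and 0.343. The estimates were 1.28 and 1.38 with limma-voom. In edgeR with 1 mouse left out, the first ran from 1.71 to 3.24. The second ran from 0.86, without ASAH− replicate 1, to 3.35.

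**Figure D1:**
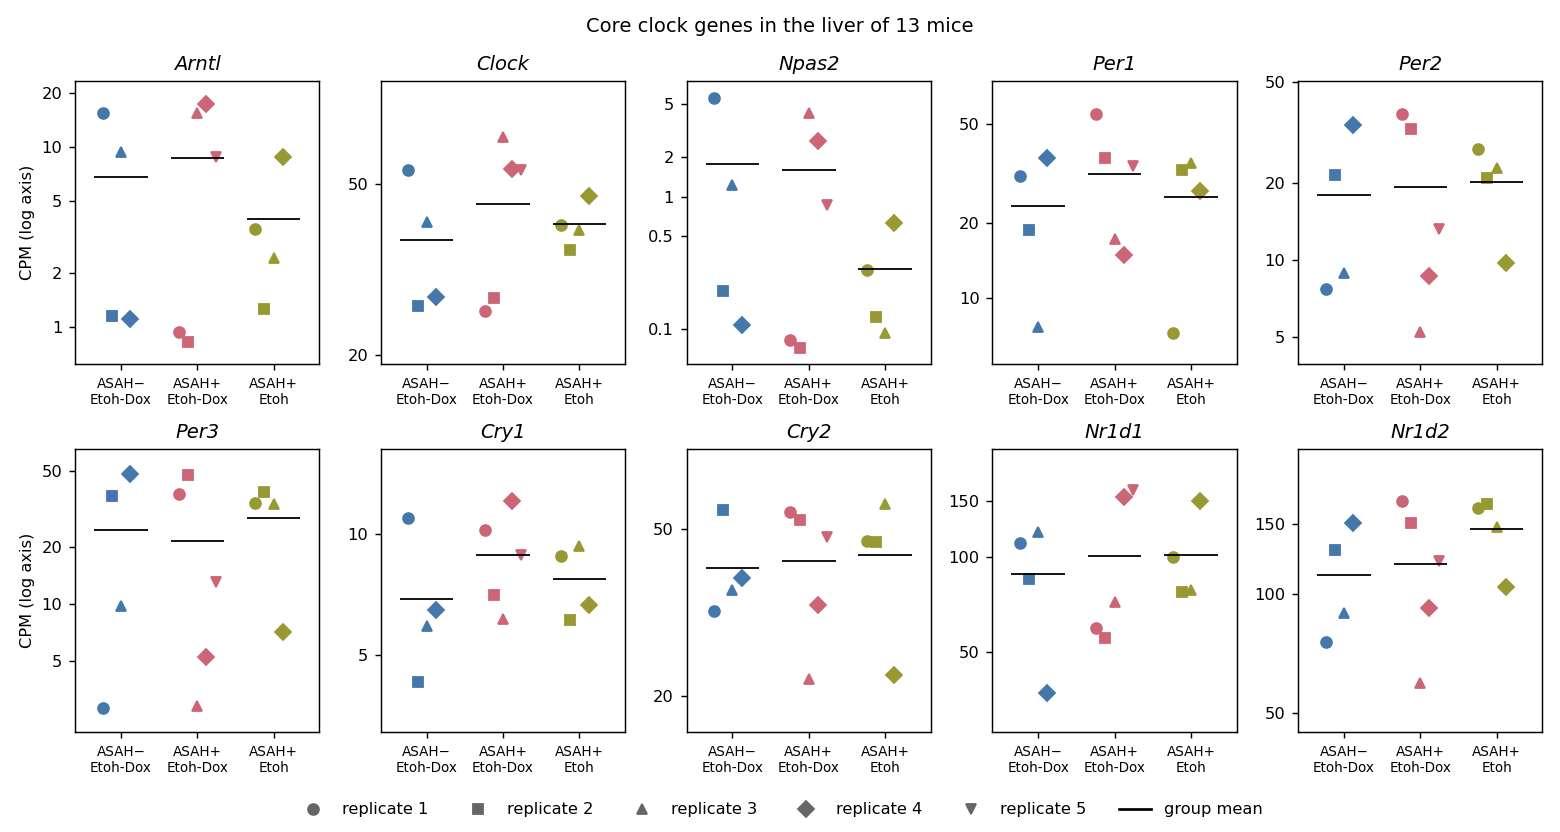
Level of each core clock gene in CPM (vertical log axis) in each of the 13 mice, by group. Symbols give the replicate number and bars the group mean. For Arntl the ASAH+ Etoh-Dox mice run from 0.8285 to 17.3 CPM, and for every gene the groups overlap.

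The repressors of the first arm are the PER and CRY proteins. Per1 (ENSMUSG00000020893, chr11:69095217-69109960, plus strand) was at 30.7, 18.7, 7.63 and 36.5 CPM in ASAH− Etoh-Dox mice, at 54.8, 36.5, 17.2, 14.8 and 33.8 CPM in ASAH+ Etoh-Dox mice, and at 7.24, 32.7, 34.9 and 26.8 CPM in ASAH+ Etoh mice. Its low mice were in part others than those of Per2 and Per3: ASAH+ Etoh replicate 1 had the least Per1 of all 13 mice, while its Per2 was among the higher values. Per2 (ENSMUSG00000055866, chr1:91415982-91459324, minus strand) was at 7.72, 21.6, 8.86 and 33.9 CPM in ASAH− Etoh-Dox mice, at 37.2, 32.5, 5.21, 8.66 and 13.2 CPM in ASAH+ Etoh-Dox mice, and at 27.3, 20.9, 22.8 and 9.77 CPM in ASAH+ Etoh mice. Per3 (ENSMUSG00000028957, chr4:151003652-151044665, minus strand) was at 2.83, 37.2, 9.79 and 48.5 CPM, at 37.7, 47.9, 2.93, 5.26 and 13.1 CPM, and at 33.9, 38.7, 33.7 and 7.11 CPM in the same groups. The order of the mice for Per2 and Per3 was close to the reverse of that for Arntl. The 6 mice with the most Arntl were also the 6 with the least Per2, the 6 with the least Per3 and the 6 with the least Nr1d2, and for Per1 4 of the 6 were shared. ASAH+ over ASAH− Etoh-Dox mice had a log2 fold change of 0.43 for Per1 (SE 0.54), 0.10 for Per2 (SE 0.61) and -0.20 for Per3 (SE 0.89). The adjusted p from edgeR was 0.99966 for each, and 13, 10 and 10 of 20 pairs of mice were higher in ASAH+. With 1 mouse left out, these fold changes ran from 0.13 to 0.73, from -0.28 to 0.61 and from -0.73 to 0.37.

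Cry1 and Cry2 encode the cryptochromes, the stronger repressors of BMAL1 and CLOCK. Cry1 (ENSMUSG00000020038, chr10:85131700-85185064, minus strand) was at 11, 4.28, 5.92 and 6.47 CPM in ASAH− Etoh-Dox mice, at 10.2, 7.06, 6.15, 12.1 and 8.89 CPM in ASAH+ Etoh-Dox mice, and at 8.85, 6.10, 9.37 and 6.65 CPM in ASAH+ Etoh mice. No group stood apart, although Cry1 had the smallest p of the 10 genes between ASAH+ and ASAH− Etoh-Dox mice, at a log2 fold change of 0.37 (SE 0.26). It did not pass the threshold (unadjusted p = 0.182, adjusted p = 0.99966 from edgeR), with 15 of 20 pairs higher in ASAH+ mice (exact permutation p = 0.246). With 1 mouse left out, the fold change of Cry1 ran from 0.19 to 0.68. Cry2 (ENSMUSG00000068742, chr2:92403646-92434043, minus strand) was at 31.9, 55.5, 35.8 and 38.2 CPM, at 54.7, 52.3, 21.95, 32.9 and 47.8 CPM, and at 46.8, 46.5, 57.2 and 22.4 CPM in the same groups. Its lowest mice were ASAH+ Etoh-Dox replicate 3 and ASAH+ Etoh replicate 4. The log2 fold change of Cry2 for ASAH+ over ASAH− Etoh-Dox mice was 0.06 (95% interval -0.60 to 0.71).

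The other arm of the loop runs through the REV-ERBs. Nr1d1 (ENSMUSG00000020889, chr11:98767932-98775333, minus strand) was at 111, 85.0, 120 and 37.3 CPM in ASAH− Etoh-Dox mice, at 59.6, 55.3, 72.2, 154 and 163 CPM in ASAH+ Etoh-Dox mice, and at 100, 77.6, 78.4 and 151 CPM in ASAH+ Etoh mice. Nr1d2 (ENSMUSG00000021775, chr14:18204054-18239127, minus strand) was at 75.6, 129, 89.3 and 151 CPM, at 172, 151, 59.6, 91.7 and 121 CPM, and at 164, 168, 148 and 104 CPM in the same groups. The paralogs did not follow each other. ASAH− replicate 4 had the least Nr1d1 of all mice with Nr1d2 at 151 CPM, and ASAH+ Etoh-Dox replicate 3 had the least Nr1d2 with Nr1d1 at 72.2 CPM. Nr1d2 was lower in 13 of 16 pairs in ASAH− Etoh-Dox mice than in ASAH+ Etoh mice, at a log2 fold change of -0.39 (SE 0.31, adjusted p = 0.736 from edgeR). An exact permutation test gave p = 0.200, the smallest of the 30 exact tests of clock genes, where 0.0286 was the smallest that 4 mice against 4 allow and 0.00794 the smallest for 5 against 4.

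Across all genes tested, the clock genes gave no call in any of the 3 comparisons. In ASAH+ against ASAH− Etoh-Dox mice, 0 of the 10 had an adjusted p under 0.1 from edgeR, against 2 of 14317 genes (0.014%), and 0 of 10 had an unadjusted p under 0.05, against 409 genes (2.86%). Between ASAH+ Etoh-Dox and ASAH+ Etoh mice the counts were 0 and 0, against 2 genes (0.014%) and 1044 genes (7.29%). Between ASAH− Etoh-Dox mice and ASAH+ Etoh mice they were again 0 and 0, against 2 genes (0.014%) and 1316 genes (9.19%). No clock gene separated the mice of any groups compared, which 127 genes (0.887%), 369 genes (2.58%) and 787 genes (5.5%) did in these comparisons. The tool limma-voom called 0 clock genes in each comparison, with 0 at an unadjusted p under 0.05, against 2, 2 and 1 of 14317 genes called and 424, 990 and 1235 at that p. DESeq2 on all 13 mice also called 0, of the 10, 4 and 9 to which it gave an adjusted p, and 0, 1 and 1 had an unadjusted p under 0.05. That gene was Npas2, to which DESeq2 gave no adjusted p. Over all genes DESeq2 called 12 of 15863, 95 of 3198 and 150 of 10065, and 503, 1229 and 1493 had an unadjusted p under 0.05. The 3 comparisons share groups of mice and are not independent of one another.

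The genes called by edgeR were few. Sod1, the gene of copper-zinc superoxide dismutase (chr16:90220754-90226329), was at 526 ± 53.4 CPM (SD, n = 4) in ASAH− Etoh-Dox mice, 846 ± 81.9 (n = 5) in ASAH+ Etoh-Dox mice and 417 ± 22.9 (n = 4) in ASAH+ Etoh mice. With Asah1 it was called for ASAH+ Etoh-Dox mice over ASAH− Etoh-Dox mice and over ASAH+ Etoh mice, with log2 fold changes of 0.69 and 1.02 (adjusted p = 0.0212 and 0.000197 from edgeR). The latter comparison holds the difference in Dox as well as induction. The mitochondrial genes mt-Co2 and mt-Co3, with log2 fold changes of 1.497 and 0.74 (adjusted p = 0.0800 and 0.0633 from edgeR), were called for ASAH− Etoh-Dox over ASAH+ Etoh mice. With each of the 13 mice left out in turn, mt-Co2 was called in 1 refit and mt-Co3 in 3, and Sod1 between genotypes was not called without ASAH− replicate 1, 3 or 4. None of these 4 is in the clock lists.

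Intervals of the clock genes were wide. The narrowest for ASAH+ over ASAH− mice given Etoh-Dox were those of Cry1 and Nr1d2. For Cry1 the 95% interval ran from -0.19 to 0.93, and for Nr1d2 it ran from -0.53 to 0.73. For Npas2 it ran from -2.62 to 2.37. The median of the 10 log2 fold changes was 0.147 in this comparison, with 8 above 0, against -0.00225 for all genes tested. It was 0.073 for ASAH+ Etoh-Dox over ASAH+ Etoh mice, with 5 above 0, against 0.013, and -0.144 for ASAH− Etoh-Dox mice over ASAH+ Etoh mice, with 2 above 0, against 0.0165. Of all 14317 genes tested, 7063, 7589 and 7619 were above 0 in these comparisons. The 10 genes varied together over the mice, so their signs are not independent of one another and were not tested.

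**Figure D2:**
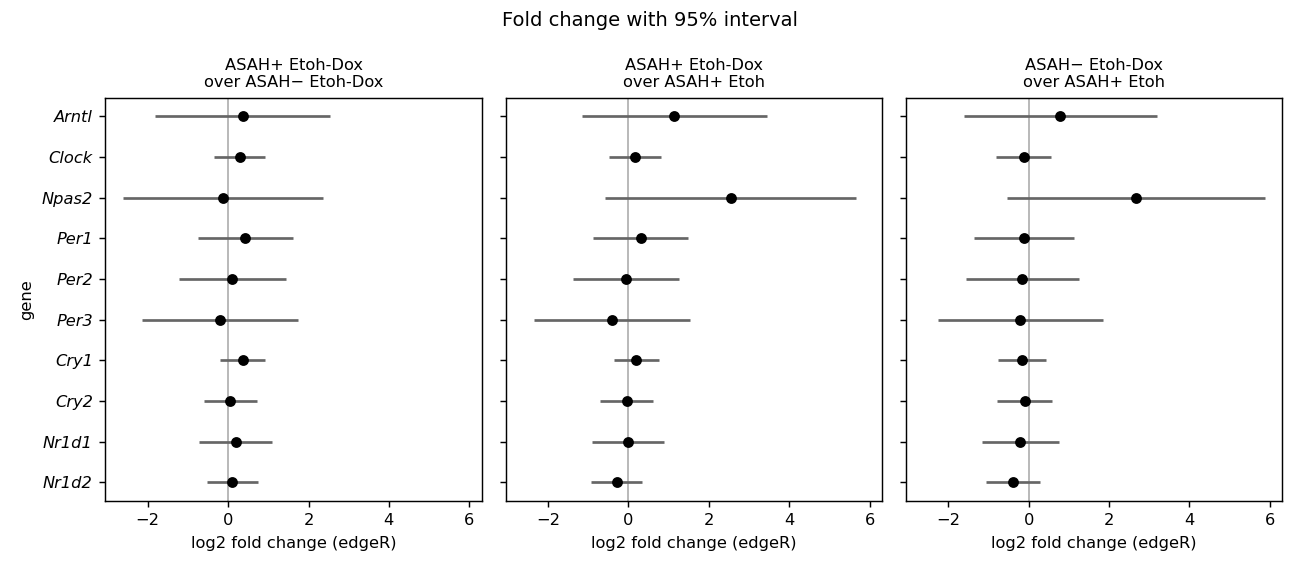
Fold change of each core clock gene on the log2 scale (horizontal axis) in the 3 comparisons of groups, from edgeR. Points are estimates and lines 95% intervals, each of which includes 0, and the interval of Npas2 reaches 5.66 for ASAH+ Etoh-Dox over ASAH+ Etoh mice.

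What the clock genes showed was a spread between mice of the same group. The SD of log2 CPM about the group means was 1.95 for Npas2, 1.82 for Arntl, 1.63 for Per3, 1.01 for Per2, 0.94 for Per1 and 0.68 for Nr1d1, each with 13 mice in 3 groups. It was 0.51 for Cry2, 0.49 for Nr1d2, 0.49 for Clock and 0.43 for Cry1. The median over all genes tested was 0.24. Of the genes tested, 99.4% had a smaller SD than Arntl, 99.2% a smaller one than Per3 and 78.7% a smaller one than Cry1, the steadiest of the 10. Genes with few reads vary more, so each was also set against genes within 0.5 of its mean log2 CPM. Of those, 99.8% were below Arntl, 98.8% below Npas2, 96.3% below Clock and 89.5% below Cry1. Differences within groups made up 83.7% of the variance of Cry1, 98.0% of that of Arntl and 99.8% of that of Cry2, with a median of 94.2% over the 10 and of 85.6% over all genes tested.

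**Figure D3:**
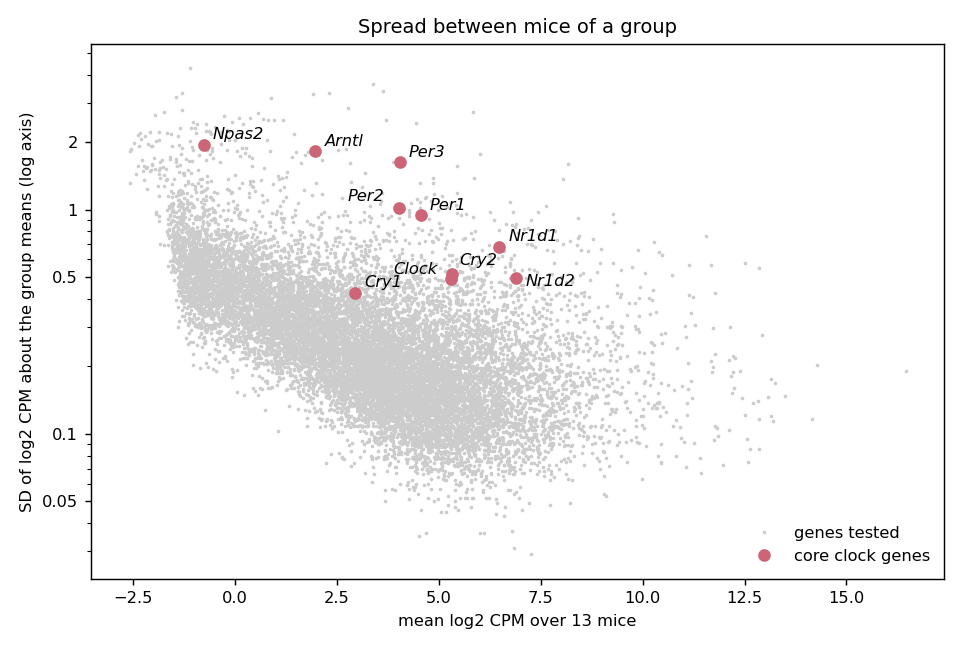
SD of log2 CPM about the group means (vertical log axis) against mean log2 CPM over 13 mice for the genes tested, with the core clock genes in colour. Arntl, Npas2 and Per3 lie at 1.82, 1.95 and 1.63, whereas the median gene has an SD of 0.24.

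**Figure D4:**
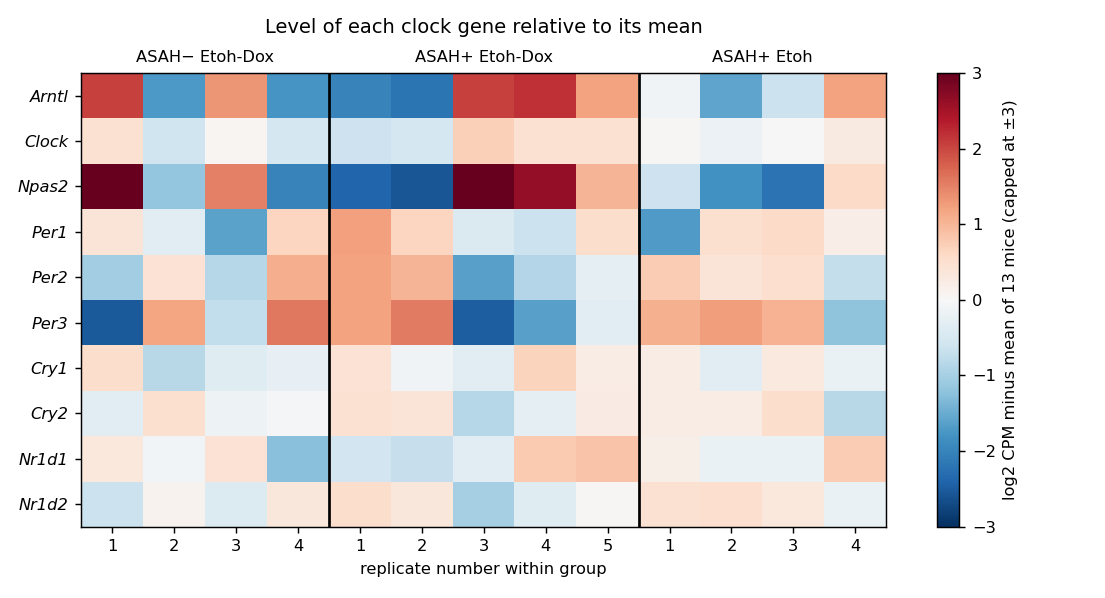
Level of each core clock gene in each mouse, as log2 CPM (no prior count) minus the mean of the 13 mice, with colours capped at 3 in either direction. Columns are mice in order of replicate number within the groups. Mice that are high for Arntl, Clock and Npas2, such as ASAH− replicate 1 with 15.6 CPM of Arntl, are low for Per2 and Per3.

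The clock genes varied together across the mice. Over the 13 mice, log2 CPM of Arntl and Clock had a Pearson r of 0.94 (permutation p = 1e-05, the smallest that 100000 permutations can give, Spearman rho 0.94, permutation p = 3e-05). For Arntl and Npas2 r was also 0.94 (permutation p = 1e-05, rho 0.94, permutation p = 1e-05). The activators were opposed to Per3, with r = -0.94 between Arntl and Per3 (permutation p = 1e-05, rho -0.92, permutation p = 4e-05), and to Per2, with r = -0.93 (permutation p = 5e-05, rho -0.91, permutation p = 6e-05). Nr1d2 was opposed to Arntl with r = -0.85 (permutation p = 0.00025, rho -0.82, permutation p = 0.00104). The 15 relations computed included Arntl with each of the other 9 genes and 6 pairs of paralogs, and after Benjamini-Hochberg adjustment over them the p of r was at most 0.0006 for these 5.

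Nr1d1 and Nr1d2 took opposite sides. Arntl and Nr1d1 varied in the same direction over the mice, with r = 0.74 (permutation p = 0.00475, adjusted 0.00792, rho 0.70, permutation p = 0.0104, adjusted 0.0168). Arntl and Cry2 had r = -0.73 (permutation p = 0.00472, adjusted 0.00792, rho -0.69, permutation p = 0.0112, adjusted 0.0168). Between the REV-ERB genes themselves r was -0.42 (permutation p = 0.153, adjusted 0.209, rho -0.51, permutation p = 0.0815, adjusted 0.094). With 1 mouse left out, this r ran from -0.65 to -0.36, and it passed the threshold of 0.05 without ASAH+ Etoh-Dox replicate 3. Among the other paralogs, Per2 and Per3 had r = 0.96 (permutation p = 2e-05, adjusted 7.5e-05, rho 0.89, permutation p = 0.00013, adjusted 0.00039), and Clock and Npas2 had r = 0.86 (permutation p = 0.00028, adjusted 0.0006, rho 0.86, permutation p = 0.00029, adjusted 0.000725).

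By Pearson r, Per1 and Cry1 were the members that tracked the rest least. Arntl and Per1 had r = -0.44 (permutation p = 0.135, adjusted 0.203) but rho = -0.69 (permutation p = 0.0108, adjusted 0.0168). Per1 and Per2 had r = 0.38 (permutation p = 0.199, adjusted 0.249, rho 0.61, permutation p = 0.03, adjusted 0.0409). Without the 2 mice farthest from the median of Per1, ASAH− replicate 3 and ASAH+ Etoh replicate 1, r was 0.69. Per1 and Per3 had r = 0.27 (permutation p = 0.368, adjusted 0.394, rho 0.57, permutation p = 0.047, adjusted 0.0587), and r was 0.56 without these mice. Cry1 had r = 0.34 with Arntl (permutation p = 0.259, adjusted 0.299, rho 0.22, permutation p = 0.471, adjusted 0.505) and 0.04 with Cry2 (permutation p = 0.901, adjusted 0.901, rho 0.03, permutation p = 0.92, adjusted 0.92). Without ASAH− replicate 2 and ASAH+ Etoh-Dox replicate 4, r of Cry1 and Cry2 was 0.42.

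These relations were also present after group means were removed, with the mice of all groups pooled. No r was computed for a single group. From deviations about the group means, r was 0.97 for Arntl and Clock, 0.96 for Arntl and Npas2, -0.95 for Arntl and Per3, -0.93 for Arntl and Per2, -0.89 for Arntl and Nr1d2 and 0.77 for Arntl and Nr1d1. Plain r for the same pairs, without the 2 mice with the most extreme Arntl (ASAH+ Etoh-Dox replicates 3 and 4) and without removal of group means, was 0.93, 0.91, -0.92, -0.92, -0.84 and 0.83 over the other 11. The widest step between neighbouring mice in Arntl lay between 3.502 and 8.79 CPM, with 7 mice below and 6 above, and took 30.7% of the range on the log2 scale. The widest step took 36.7% of the range for Cry2, 33.3% for Per3 (also 6 mice against 7), 32.8% for Per1 and 31.0% for Cry1, and 20.5% to 26.8% for the other 5. No batch or date is named in the labels, so that none could be examined. The descriptions also hold a sample number. Mice with lower numbers were mostly low for Arntl and those with higher numbers mostly high, with exceptions in either direction. This order was not tested.

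**Figure D5:**
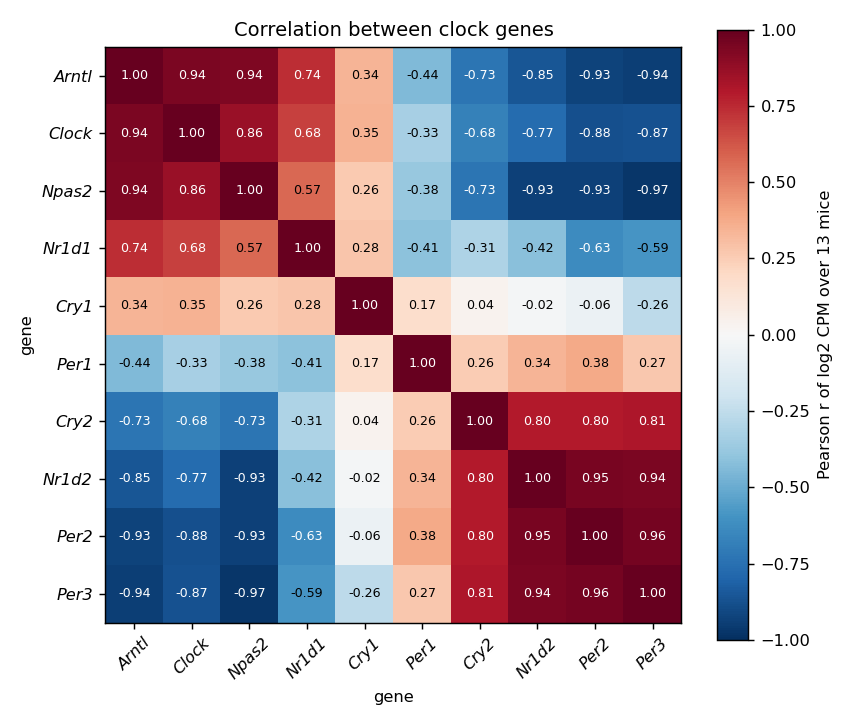
Pearson r of log2 CPM over the 13 mice for each pair of core clock genes, in colour from -1 to 1 and as numbers. Arntl, Clock and Npas2 form a block of 0.86 to 0.94, Per2, Per3 and Nr1d2 one of 0.94 to 0.96, and Per1 and Cry1 stand between.

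Over the 45 pairs of clock genes r ran from -0.97 to 0.96, and its size had a median of 0.678. Of these pairs, 15 (33.3%) had an r beyond 0.8 in either direction. Over the 102481086 pairs of all genes tested, the size of r had a median of 0.24, and 0.458% were beyond 0.8. Genes are not independent replicates, and the shares are given as a description. The pairs of all genes were not matched to the clock genes in level or spread. The median SD about the group means was 0.81 for the clock genes and 0.24 for all genes tested. The most negative pair was Npas2 and Per3.

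Sequencing depth and cell markers were set beside these relations. Log2 of the total counts had r = -0.45 with Arntl (permutation p = 0.123, rho -0.39, permutation p = 0.188, adjusted over 11 relations 0.352 and 0.563). It had r = -0.66 without the same 2 mice and -0.70 from deviations about the group means, so that deeper libraries had less Arntl after group means were removed. When log2 total counts were regressed out of log2 CPM, a step chosen after seeing the data, r was 0.93 for Arntl and Clock, 0.95 for Arntl and Npas2, -0.94 for Arntl and Per3, -0.92 for Arntl and Per2, -0.88 for Arntl and Nr1d2 and 0.66 for Arntl and Nr1d1. Over the 10 marker lists, r of the summed level with Arntl ran from -0.45 for the neutrophil list to 0.50 for the pancreatic acinar list, and the smallest adjusted p of a permutation test was 0.352. The defining adipocyte genes Adipoq and Plin1 were near 0, at no more than 0.0913 CPM summed. In the pancreatic acinar list nearly all reads were of Cela1, at a mean of 7.56 CPM, and Prss2 and Cpa1 were near 0. The summed hepatocyte markers had r = 0.47 with Arntl (permutation p = 0.106, rho 0.42, permutation p = 0.154). From deviations about the group means r was 0.57 for hepatocyte and -0.54 for lymphocyte markers, the values farthest from 0 among the 10 lists.

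Levels of different genes can be compared only per length. The length used was that of all bases in any annotated exon of the gene. The length of the transcripts present was not measured, so the order can depend on the annotation. Per kb of exon, Nr1d1 was the most abundant, with 31.6 ± 13.1 CPM per kb (SD, n = 13), followed by Nr1d2 with 23.1 ± 6.97. Nr1d1 exceeded Nr1d2 in 8 of 13 mice only, so their order was not the same in all mice. Nr1d2 exceeded Cry2 (6.62 ± 1.93 CPM per kb) in all 13. From there the order was Per1 (4.81 ± 2.40), Per2 (3.28 ± 1.89), Clock (3.00 ± 0.938), Per3 (2.55 ± 1.85) and Cry1 (2.37 ± 0.694), in which each gene was above the next in 6 to 10 of 13 mice. Cry2 was above Per1 in 9. Cry1 exceeded Arntl (0.887 ± 0.837 CPM per kb) in 12 of 13 mice, and Arntl exceeded Npas2 (0.259 ± 0.375) in all 13.

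The other genes of the clock were taken from 4 lists with 23 genes in all. Of 8 other transcription factors of the loop, 7 were tested, since Rorb had at most 2 reads in a mouse. Of these, 0 were called up and 0 down in each comparison, and 0, 0 and 1 had an unadjusted p under 0.05. The latter was Rora, an activator at the same elements as the REV-ERBs, at a log2 fold change of -0.22 (SE 0.093) in ASAH− Etoh-Dox mice over ASAH+ Etoh mice (adjusted p = 0.502 from edgeR). Of the list of Dbp, Tef, Hlf and Nfil3, 0 of 4 were called, and of a list of 9 genes, kinases and ubiquitin ligases of PER and CRY and the deubiquitinase Usp2, 0 were called. In the latter list the smallest p was that of Gsk3b, a kinase of clock proteins, at a log2 fold change of -0.30 (SE 0.085, adjusted p = 0.389 from edgeR) between ASAH− Etoh-Dox mice and ASAH+ Etoh mice. DESeq2 on all 13 mice called Gsk3b there (adjusted p = 0.0711), among 150 of 10065 genes called, and limma-voom called 0. Between ASAH+ Etoh-Dox and ASAH+ Etoh mice DESeq2 gave an adjusted p to only 3, 3, 3 and 1 genes of the 4 lists. Of Ncor1 and Hdac3, which carry out repression by the REV-ERBs, 0 were called. At an unadjusted p under 0.05, edgeR, DESeq2 and limma-voom each had Rora and Gsk3b for ASAH− Etoh-Dox over ASAH+ Etoh mice and 0 genes of the 4 lists in the other comparisons. For edgeR this was 2 genes, in a comparison where 9.19% of all genes tested had such a p.

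Values of Dbp and Nfil3 are given next. Dbp, a PAR bZIP activator that is a direct target of BMAL1 and CLOCK, was at 7.99, 111, 33.3 and 82.2 CPM in ASAH− Etoh-Dox mice, at 102, 99.8, 4.95, 19.2 and 57.8 CPM in ASAH+ Etoh-Dox mice, and at 78.1, 89.2, 82.4 and 26.7 CPM in ASAH+ Etoh mice. Nfil3, a repressor at the same D-box elements as Dbp, was at 30.8, 9.17, 16.0 and 8.51 CPM, at 11.01, 8.07, 26.0, 44.9 and 19.9 CPM, and at 13.1, 10.4, 11.2 and 38.2 CPM in the same groups. Mice low for Dbp were high for Nfil3. As a description over 13 mice, r with Per2 was 0.91 for Dbp, 0.95 for Tef, 0.75 for Hlf and -0.84 for Nfil3. It was 0.90 for Ciart, a repressor of the loop, 0.82 for Bhlhe41 and 0.82 for Bhlhe40. Usp2, a deubiquitinase whose transcript cycles in liver, had r = 0.92 with Per2 and ran from 7.09 to 70.0 CPM. Rora had r = 0.13 with Per2, and Csnk1d and Csnk1e, the casein kinases of PER, had -0.34 and -0.12. Their SDs about the group means were 0.12, 0.18 and 0.17, below the 0.24 of the median gene.

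The genes most like Arntl and Per2 were then sought among 11056 genes tested with a mean log2 CPM above 1 and in none of the lists. Since they are the extremes of that many genes, r is given as a description over 13 mice. The highest r with Arntl was 0.97 for Leo1 (4.58 to 15.8 CPM), 0.96 for Clpx (55.1 to 300 CPM), the gene of a mitochondrial protease subunit, and 0.96 for Prkaca (38.9 to 54.4 CPM), that of a catalytic subunit of protein kinase A. The lowest was -0.97 for Wee1 (2.15 to 27.4 CPM), a kinase that holds back entry into mitosis, -0.96 for Slc5a6 (6.18 to 29.3 CPM), a vitamin transporter, and -0.96 for Nmrk1 (8.31 to 47.2 CPM), a nicotinamide riboside kinase. With Per2 the highest were 0.96 for Stk35, 0.96 for Maco1 and 0.95 for Nhlrc2, and the lowest were -0.97 for Prkaca, -0.97 for Ndrg1 (5.44 to 35.1 CPM) and -0.96 for Trim2 (14.99 to 46.4 CPM).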

How the data were processed

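Liver RNA of 13 mice had been sequenced as stranded mRNA libraries with single reads of 100 bases. Reads were assigned by the authors with salmon, on GENCODE M19 and GRCm38.p6, and joined per gene by tximport. The file deposited by the authors holds estimated counts, not scaled for depth, and 100% are whole numbers, so rounding altered none. Salmon divides reads shared by similar transcripts, which can shift counts between paralogs. Each library was placed by its description, and Asah1 checks induced against uninduced mice only. ASAH+ titles state the opposite Dox treatment and served only for replicate numbers, which mark different animals.

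Genes were filtered by edgeR's rule for 3 groups, scaled by TMM and fitted in 1 model of 3 group means with robust quasi-likelihood tests (edgeR 4.0.16, R 4.3.3). Benjamini-Hochberg adjustment covered 14317 genes, with a threshold of 0.1. A standard error is the estimate over the root of its F statistic. Fold changes compare mean counts, whereas exact tests compare means of log2 CPM (prior count 2), so the sign can differ. Correlations used log2 CPM and 100000 permutations, with an adjusted p threshold of 0.05. Counting error grows as reads get fewer, and amplified reads are not independent molecules. DESeq2 1.42.0, limma 3.58.1 and the other alternatives are covered in the closing section. The members and lists were chosen with earlier results of these data known. The genes named were Asah1, the 10 members, the genes of 4 clock lists, called genes where 10 or fewer were called, and the 3 highest and 3 lowest r with Arntl and Per2. Some cell type markers were also named. Symbols were found for 53355 of the 53392 identifiers, and coordinates and exon lengths came from GENCODE M21. Scripts were tested on simulated data. In a chi-square comparison of counts, replicates of a group differed by at least 17.3 times the degrees of freedom in all 22 pairs, so none was a copy of another in its group.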

Additional observations from a re-analysis of the deposited data

Results flagged for a closer look

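A mouse stood far from the rest of its group in 5 of the 132 groups of values examined, by the gap to its nearest neighbour over the range of the group. Chance alone flags about 1 in 20 groups. Among the clock genes it was 1 of 30. Per3 was at 7.11 CPM in ASAH+ Etoh replicate 4, whereas the other 3 mice of that group were between 33.7 and 38.7 CPM. The same mouse had the highest Nfil3 of its group, at 38.2 CPM. The remaining cases had few reads. Rorb was at 0.0814 CPM in ASAH+ Etoh replicate 2, from 2 reads, and the summed adipocyte markers were at 0.0407 CPM in that mouse. The summed neutrophil markers were at 2.04 CPM in ASAH+ Etoh replicate 3. What set these mice apart was not tested.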

How the results depend on the processing

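Members called remained 0 in each comparison under all 23 other settings, with at most 1 at an unadjusted p under 0.05. That was Npas2 with DESeq2, and Cry1 in ASAH+ against ASAH− Etoh-Dox mice without ASAH− replicate 1 (adjusted p = 0.997 from edgeR). The lowest adjusted p of a member was 0.900, 0.553 and 0.402 in the 3 comparisons. Npas2 had no value with at least 10 counts required in every mouse, nor in edgeR on ASAH− Etoh-Dox and ASAH+ Etoh alone.

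The count of all genes called moved. For ASAH+ against ASAH− Etoh-Dox it was 12 with DESeq2 on all mice, 11 with DESeq2 and 1 with edgeR on the groups compared, and 1 to 2 with a mouse left out. For ASAH+ Etoh-Dox against ASAH+ Etoh it was 95 and 113 with DESeq2, 4 without a count filter and 2 to 8 with a mouse left out, the 8 without ASAH+ Etoh replicate 2. For ASAH− Etoh-Dox against ASAH+ Etoh it was 150 and 168 with DESeq2, 1 with limma-voom, 0 at an adjusted p under 0.05, 0 with edgeR on these groups alone and 0 to 2 with a mouse left out. The call of Sod1 between genotypes was lost without ASAH− replicate 1, 3 or 4, with the replicate block and with edgeR on the groups compared. With a mouse left out, mt-Co2 was called only without ASAH− replicate 4, and mt-Co3 only there and without ASAH+ Etoh-Dox replicate 1 or ASAH+ Etoh replicate 3. The block, edgeR on these groups alone and a threshold of 0.05 lost both, and limma-voom and no count filter lost mt-Co2.

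The replicate numbers were tried as a block, which pairs mice by number. Genes called were then 1 for ASAH+ against ASAH− Etoh-Dox and 0 for ASAH− Etoh-Dox against ASAH+ Etoh. Log2 fold changes of ASAH+ over ASAH− Etoh-Dox reversed with the block for Npas2 (0.16), Per2 (-0.0110), Cry2 (-0.0307) and Nr1d1 (-0.19). Profiles of mice with the same number correlated at -0.0462 on average (12 pairs) and other mice of different groups at 0.0127 (44 pairs), so mice of 1 number were no more alike. Per2 also reversed with limma-voom (-0.00693).

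With 1 mouse left out, counted over all members, comparisons and mice, 51 fold changes reversed and 339 kept their direction, none past the threshold. For ASAH+ over ASAH− Etoh-Dox the ranges were -0.0556 to 1.18 for Arntl, -0.94 to 1.68 for Npas2, -0.28 to 0.61 for Per2, -0.73 to 0.37 for Per3, -0.0588 to 0.25 for Cry2, -0.0637 to 0.38 for Nr1d1 and -0.0713 to 0.28 for Nr1d2. For ASAH+ Etoh-Dox over ASAH+ Etoh they were -0.0137 to 0.30 for Clock, -0.00103 to 0.49 for Per1, -0.45 to 0.17 for Per2, -0.27 to 0.11 for Cry2 and -0.26 to 0.23 for Nr1d1. Those that kept their sign there included 0.73 to 1.85 for Arntl, lowest without ASAH+ Etoh-Dox replicate 4 and highest without ASAH+ Etoh replicate 4, and 1.71 to 3.24 for Npas2. With limma-voom Arntl was 0.48 and Npas2 1.28. For ASAH− Etoh-Dox over ASAH+ Etoh Npas2 ran from 0.86 without ASAH− replicate 1 to 3.35, and was 1.38 with limma-voom. The ranges that crossed 0 were -0.0454 to 1.48 for Arntl, -0.38 to 0.0110 for Clock, -0.43 to 0.17 for Per1, -0.67 to 0.0767 for Per2, -0.77 to 0.15 for Per3, -0.49 to 0.00538 for Cry1, -0.33 to 0.0447 for Cry2 and -0.39 to 0.0507 for Nr1d1.

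Correlations by Pearson r, counted over all pairs and mice left out, kept their direction and side of the threshold of 0.05 in 189 values and did not in 6. They kept them in all 60 values under other settings. A setting among those, log2 total counts regressed out, was chosen after seeing the data. By rank, 2 pairs crossed it: Arntl and Per1 (adjusted p = 0.203 for r and 0.0168 for rho, by permutation) and Per1 and Per2 (0.249 and 0.0409). Cry1 and Cry2 ran from -0.10 to 0.27. Per1 and Per2 ran from 0.26 to 0.65, past the threshold without ASAH+ Etoh replicate 1. Nr1d1 and Nr1d2 ran from -0.65 to -0.36, past it without ASAH+ Etoh-Dox replicate 3. The SDs within groups moved little under any setting. For Arntl the SD ran from 1.70 to 1.92 with a mouse left out. The cause of these shifts was not tested. Depth limits Npas2 most, with 2 to 121 reads per mouse.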
